A study of Mus musculus with 8 samples.

Results

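The heat-shock proteins and cytosolic chaperones were followed in CD4 single-positive thymocytes, thymic T cells that have completed selection and kept CD4 alone. The 38 genes were listed by symbol as HSP70 and HSP110 proteins, J-domain proteins, nucleotide exchange factors, HSP90 with its co-chaperones, subunits of the chaperonin TRiC, heat-shock factors, 1 small heat-shock protein and 4 chaperones that work in mitochondria. Each gene was read from its brightest probe set annotated with 1 symbol, which gave 35 of the 38 genes, out of 22180 genes read this way. Of these, 33 passed a filter on dim signal (a mean log2 intensity of 5.56 or more, the median probe set), as did 11585 genes in all. Hspa2 and Hspb1 lay below it and are given as levels. Dnaja1 was read only by a probe set shared with Mir207, and Hsp90ab1 and Hsf1 were not named in the annotation, so these 3 are outside the rule.

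RNA of sorted cells from C57BL/6 mice was hybridised to Mouse Gene 2.0 ST arrays, 4 labelled wild type (WT) and 4 labelled Pggt1b knockout (KO). Pggt1b encodes the catalytic subunit of the enzyme that attaches geranylgeranyl lipids to small GTPases. The labels do not state the allele, any Cre driver, the age of the mice or whether each array stands for 1 animal, so the p-values measure the spread between these samples, which may be technical. Pggt1b itself was lower in every KO array, by -0.59 ± 0.07 on the log2 scale (SE, n = 4 and 4), a fall of 33.7% in signal (limma, adjusted p = 0.0014).

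Chaperones hold unfolded proteins and help them to fold. HSP70 proteins bind client peptides in a cycle driven by ATP, J-domain proteins deliver the clients and start ATP hydrolysis, and nucleotide exchange factors such as BAG proteins and HSP110 release them. HSP90 and its co-chaperones finish the folding of kinases, receptors and other signalling proteins, and TRiC folds actin and tubulin. Heat and other protein stress release the transcription factor HSF1, which binds repeated GAA units, the heat-shock element, in the promoters of inducible genes such as Hspa1a and Hspa1b, whereas Hspa8 is the HSP70 that most cells make at all times.

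The promoters below belong to the genes on which the results turn. They are Hspa1a and its near copy Hspa1b, Dnajb1 and Hspe1, and Hsf2. Dnajb1 and Hspe1 passed only an unadjusted permutation p under 0.05 for likeness to Hspa1a, and Hsf2 was called lower in KO. The likeness of Dnajb1 and of Hspe1 and the call of Hsf2 were each lost when most single arrays were left out in turn. Hsph1, the member that spread widest in a second pattern, was added after its values were seen. Each run is the 250 bases before the transcription start in RefSeq (build GRCm38.p6), written 5′ to 3′ on the gene's strand. Capitals mark the GAA and TTC units of every GAANNTTC or TTCNNGAA, the 2-unit form of the heat-shock element. Each form reads the same on the opposite strand, and neighbouring matches can overlap by a unit.
Hspa1a, chr17:34972157-34972406, minus strand: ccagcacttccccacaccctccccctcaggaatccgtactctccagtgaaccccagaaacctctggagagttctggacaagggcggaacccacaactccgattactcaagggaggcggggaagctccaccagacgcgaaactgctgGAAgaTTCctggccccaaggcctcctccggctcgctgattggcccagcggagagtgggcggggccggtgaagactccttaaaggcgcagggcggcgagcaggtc
Hspa1b, chr17:34959239-34959488, minus strand: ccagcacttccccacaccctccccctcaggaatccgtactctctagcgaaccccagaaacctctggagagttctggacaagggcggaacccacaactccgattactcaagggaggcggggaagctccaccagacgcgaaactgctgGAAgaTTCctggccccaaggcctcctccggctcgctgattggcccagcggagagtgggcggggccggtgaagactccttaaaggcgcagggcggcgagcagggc
Dnajb1, chr8:83607925-83608174, plus strand: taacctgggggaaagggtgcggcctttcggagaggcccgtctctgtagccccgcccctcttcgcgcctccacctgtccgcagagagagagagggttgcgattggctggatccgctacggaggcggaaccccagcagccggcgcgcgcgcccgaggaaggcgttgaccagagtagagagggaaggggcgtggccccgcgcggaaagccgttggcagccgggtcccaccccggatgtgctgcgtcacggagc
Hspe1, chr1:55087898-55088147, plus strand: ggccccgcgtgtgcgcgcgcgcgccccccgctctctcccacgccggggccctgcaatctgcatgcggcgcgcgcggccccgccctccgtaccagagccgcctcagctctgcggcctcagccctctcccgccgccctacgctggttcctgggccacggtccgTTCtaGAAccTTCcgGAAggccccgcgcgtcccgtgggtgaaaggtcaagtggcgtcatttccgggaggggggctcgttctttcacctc
Hsf2, chr10:57486135-57486384, plus strand: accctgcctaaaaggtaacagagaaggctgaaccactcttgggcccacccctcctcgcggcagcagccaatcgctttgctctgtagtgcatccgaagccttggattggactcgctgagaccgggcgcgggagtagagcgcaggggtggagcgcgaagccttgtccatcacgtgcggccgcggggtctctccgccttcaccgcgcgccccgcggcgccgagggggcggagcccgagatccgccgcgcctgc
Hsph1, chr5:149636337-149636586, minus strand: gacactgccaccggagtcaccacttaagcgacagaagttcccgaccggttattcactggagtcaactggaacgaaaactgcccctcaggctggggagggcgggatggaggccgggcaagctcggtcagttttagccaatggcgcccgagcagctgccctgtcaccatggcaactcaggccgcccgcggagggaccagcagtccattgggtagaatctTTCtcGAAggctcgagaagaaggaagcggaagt

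Hspa1a and Hspa1b had the same letter at 247 of 250 positions, and both held 1 match, starting 104 bases before the start site. The Hspe1 promoter held 3 overlapping matches, which start 79 to 89 bases before the start site and form 1 run of 4 alternating units that holds the longer 3-unit form 2 times. This promoter lies head to head with Hspd1, and 215 of its bases are also in a window of that gene. Hsph1 held 1 match starting 33 bases before the start site, and neither Dnajb1 nor Hsf2 held one in this window.

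Over the whole group, RefSeq windows were found for 32 of 38 genes, all but Hspa8, Hspa9, Hspa13, Hsp90aa1, Hsp90ab1 and Hsf1. A 2-unit match stood in at least 1 window of 13 of the 32 genes (40.6%): Hspa1a, Hspa1b, Hsph1, Dnaja1, Dnaja4, Dnajb4, Dnajb6, Fkbp4, Cct2, Cct5, Hspd1, Hspe1 and Hspb1. The share over all 27025 genes with windows of this length was 14.5%. The 3-unit form stood in 3 of the 32 (9.38%), Dnajb6, Hspd1 and Hspe1, against 0.514% of all genes. These shares do not count separate elements: Hspd1 and Hspe1 hold the same one in the bases they share, and Hspa1a and Hspa1b are near copies. A gene with more windows also has more room for a match, and the 32 genes had 46 windows, against 32851 for the 27025 genes. A match describes letters only.

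Arrays of 1 genotype differed far more in Hspa1a and Hspa1b than in the other chaperones. The log2 intensity of Hspa1a, the stress-inducible HSP70, was 4.84, 5.65, 8.00 and 6.04 in WT replicates 1 to 4 and 9.94, 9.27, 4.27 and 7.71 in KO replicates 1 to 4. KO replicate 3 was the lowest of all 8 arrays and KO replicate 1 the highest, and the range over KO contained every WT value. In signal the range was 50.7-fold over KO and 8.93-fold over WT, but WT replicate 1 and KO replicate 3 lay below the filter on dim signal, so neither fold is an exact ratio of RNA. With values under the filter raised to it, an alternative added after seeing the data, the ranges were at least 20.7-fold over KO and 5.43-fold over WT. The SD was 1.34 in WT and 2.53 in KO, and the SD pooled over both genotypes ranked 3 among 11585 tested genes. Hspa1b gave 5.70, 7.07, 9.16 and 7.45 in WT and 10.75, 10.30, 4.87 and 8.79 in KO, with the arrays of each genotype in the same order as for Hspa1a and an SD rank of 2. Its range over all arrays was 59.0-fold in signal, and at least 36.5-fold with KO replicate 3, its 1 value under the filter, raised to it.

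Because Hspa1a and Hspa1b are near copies of each other, their probe sets may share signal, and the split between them is uncertain. A dim probe set annotated with both symbols had a mean of 4.85 and followed Hspa1a over the arrays (Pearson r = 0.88 after the genotype means were removed), with its highest values, 5.96 and 5.55, in KO replicates 1 and 2.

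**Figure D1:**
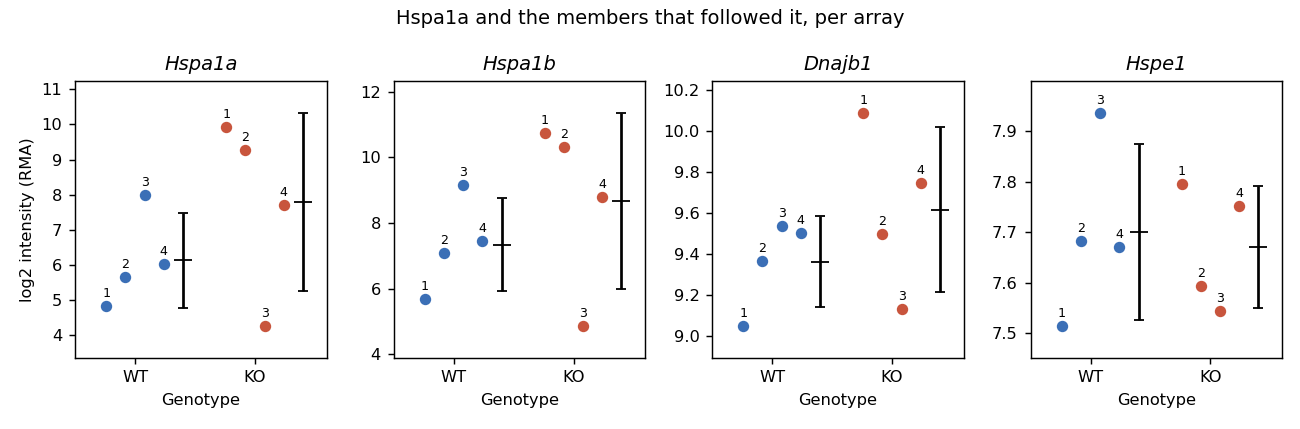
Log2 intensity (RMA, vertical axis) of Hspa1a, Hspa1b, Dnajb1 and Hspe1 in the 4 WT and 4 KO arrays, with a vertical scale of its own for each gene. Numbers are replicates, and the bar beside each group is the mean with its SD. KO replicate 3 is the lowest KO array and KO replicate 1 the highest in all 4 panels. Hspa1a spans at least 20.7-fold, with values under the filter on dim signal raised to it, and Hspe1 1.34-fold.

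The remaining chaperones spread much less, and the widest pooled SD among them was 0.664, for Hsph1. With Hspa1a and Hspa1b included, the median pooled SD was 0.143 over the 33 tested members. It was 0.0975 over all tested genes, and 22 of the 33 members lay above that median. A pooled SD above 0.228, the 95th percentile of all tested genes, was seen in 8 members: Hspa1a, Hspa1b, Hsph1, Dnajb1, Chordc1, Hsp90aa1, Stip1 and Dnaja4. By role, the median SD was 0.222 for HSP90 and its co-chaperones, 0.148 for HSP70 and HSP110 proteins, 0.126 for J-domain proteins, 0.105 for mitochondrial chaperones, 0.0763 for the BAG factors and 0.0662 for TRiC. The brightest probe set of the constitutive Hspa8 stayed between 12.19 and 12.44, and Cct5, a TRiC subunit, between 10.40 and 10.54. Dimmer Hspa8 probe sets with 1 symbol spread more, from 8.29 to 8.88, from 9.36 to 9.91 and from 9.36 to 9.90. The dim Hspb1, which encodes the small heat-shock protein HSP27, ran from 4.72 to 5.03, and Hspa2, the HSP70 known for its role in sperm cells, from 5.17 to 5.45.

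Likeness to Hspa1a was measured after the genotype means were removed, as Pearson's r over the 8 arrays with an exact two-sided permutation of arrays within genotype. A positive r with an unadjusted permutation p under 0.05 was found for 3 of 32 members (9.38%), against 2.4% of the other 11584 tested genes. These were Dnajb1, Hspe1 and Hspa1b. Hspa1b is a near copy of Hspa1a and its probe set may share signal with it, so its place in this count is not independent of Hspa1a. No gene passed after Benjamini-Hochberg adjustment over all 11584 genes, where the lowest adjusted exact permutation p was 0.914. The possible orders of 4 and 4 arrays cannot give a p below 0.0017, so a gene could pass only together with many others at low p. An unadjusted permutation p under 0.05 was found for 278 genes with a positive r and 245 with a negative r.

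Hspa1b followed Hspa1a almost array by array, with r = 0.995 (exact permutation p = 0.0017, the smallest these orders can give) and a Spearman rho of 1.00 (exact permutation p = 0.0017). Without KO replicates 3 and 1, the arrays farthest from the median of Hspa1a, r was 0.985. In a limma fit of every tested gene on Hspa1a with genotype, chosen after the data were seen, Hspa1b was the only gene called, with an adjusted p of 5.69e-06.

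Dnajb1, the J-domain protein HSP40 that partners inducible HSP70, gave 9.05, 9.36, 9.54 and 9.50 in WT and 10.09, 9.50, 9.13 and 9.74 in KO. Its highest and lowest arrays in each genotype were those of Hspa1a. The r was 0.821 (exact permutation p = 0.0469) and rho 0.833 (exact permutation p = 0.0313), with a slope of 0.13 log2 units for each log2 unit of Hspa1a. Without KO replicates 3 and 1, r fell to 0.482, so the relation rested in part on those arrays, and the limma fit on Hspa1a did not call it (adjusted p = 1.00).

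Hspe1 encodes HSP10, the lid of the mitochondrial HSP60 chamber that Hspd1 encodes. It gave 7.51, 7.68, 7.94 and 7.67 in WT and 7.79, 7.59, 7.54 and 7.75 in KO, again with the same highest and lowest arrays as Hspa1a. The r was 0.704 (exact permutation p = 0.0451) and rho 0.786 (exact permutation p = 0.0278), with a slope of 0.05. Without KO replicates 3 and 1 it was 0.686, and limma did not call it either (adjusted p = 1.00). Its head-to-head neighbour Hspd1 had an r of 0.06 with Hspa1a (exact permutation p = 0.865).

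Just outside the threshold stood Cct5 at r = 0.797 (exact permutation p = 0.0799), and the inducible HSP90 gene Hsp90aa1 had an r of 0.636 (exact permutation p = 0.118). The lowest r values were those of Cct2 at -0.63 and Dnajb5 at -0.63. Without single arrays the count of 3 ran from 1 to 6. Hspa1b alone passed without WT replicate 2, without WT replicate 4, without KO replicate 1 or without KO replicate 3. Of these runs without a single array, Dnajb1 passed only in that without KO replicate 2. Hspe1 passed only without KO replicate 2 or without KO replicate 4. Leaving out WT replicate 3 gave 6, with Hspa9, Hsp90aa1, Hsf2, Hspa13 and Dnaja4 beside Hspa1b. With each array centred on its median, Cct5 passed in place of Dnajb1. Pooled over genotypes without removing their means, Hspe1 did not pass.

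Genes outside the group that were most like Hspa1a, as a description, were Tapt1 (r = 0.983), Npffr1 (r = 0.979), Ppp1r21 (r = 0.970), Vax2 (r = 0.968), Atp5a1 (r = 0.960), Atf4 (r = 0.955), Atg101 (r = 0.95) and Gm10257 (r = 0.95), over 8 arrays. Their ranges over the arrays were small, from 0.25 log2 units for Atp5a1 to 0.43 for Atf4. The lowest r values were those of Exosc10 (-0.984), Gm614 (-0.979), Csrp1 (-0.975) and Gpr174 (-0.963).

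Immediate-early genes, which cells also induce within minutes of handling or stimulation, were read beside Hspa1a. The mean log2 intensity over 16 such genes was 9.03, 9.12, 9.12 and 9.12 in WT replicates 1 to 4 and 9.26, 9.20, 9.03 and 9.23 in KO replicates 1 to 4. WT replicate 1 and KO replicate 3 were the lowest of their genotype both in this mean and in Hspa1a, and KO replicate 1 was the highest KO array in both. WT replicates 2 to 4 were alike in this mean, at 9.12, although Hspa1a was far higher in WT replicate 3. The median r with Hspa1a over the 16 genes was 0.45, against -0.02 over all tested genes. Of the 16, 1 gene, Ier2, had a positive r with a permutation p under 0.05 (r = 0.796). This is 6.25%, against 2.4% of all tested genes. Fos had an r of 0.762, which did not pass. Their part in the spread of Hspa1a was not tested.

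A second pattern ran through HSP90 co-chaperones and genes outside the group. Among the members that shared it, the spread was widest in Hsph1, which encodes the HSP110 exchange factor HSP105. Hsph1 gave 7.87, 7.99, 7.74 and 9.42 in WT and 8.48, 8.16, 7.76 and 8.99 in KO, an SD rank of 18 among 11585 genes. Replicate 4 was the highest array in WT and in KO. This order is not that of Hspa1a, and the r between Hsph1 and Hspa1a was 0.196 (exact permutation p = 0.609), with a rho of 0.381 (exact permutation p = 0.387). KO replicate 3 was the lowest KO array for both genes. WT replicate 3, the highest WT array of Hspa1a, was the lowest WT array of Hsph1.

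Replicate 4 was highest in both genotypes for 13 of 33 members (39.4%), against 12.2% of all tested genes: Hspa4, Hspa4l, Hspa8, Hsph1, Dnaja2, Stip1, Ahsa1, Chordc1, Cacybp, Fkbp4, Cct3, Hspd1 and Hsf2. They hold 5 of the 6 genes of HSP90 and its co-chaperones, since Hsp90aa1 was highest in replicate 4 of WT but in replicate 1 of KO. This pattern was noticed in these values and is given as a description. Both replicates 4 carry the last sample numbers in the titles, and the labels do not say what else they share.

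Stip1, the HOP protein that links HSP70 to HSP90, gave 9.60, 9.75, 9.74 and 10.20 in WT and 9.73, 9.58, 9.52 and 10.07 in KO. Chordc1, an HSP90 co-chaperone known as Morgana, gave 9.73, 10.09, 10.06 and 10.54 in WT and 10.15, 10.04, 9.98 and 10.39 in KO. Fkbp4, the HSP90-bound immunophilin FKBP52, gave 9.03, 9.08, 8.96 and 9.39 in WT and 9.25, 9.11, 8.89 and 9.33 in KO. In each of the 3 genes WT replicate 4 stood above the other WT arrays, while the gap in KO was narrow for Fkbp4. Cacybp, which binds the calcyclin protein S100A6, reached 10.37 in WT replicate 4 against at most 9.98 in the other WT arrays. Ahsa1, which stimulates the ATPase of HSP90, reached 9.40 there against at most 9.24.

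With Hsph1, r was above 0.8 for 12 members and for 4.62% of all tested genes. The 12 were Fkbp4 (0.957), Cct3 (0.953), Stip1 (0.947), Cacybp (0.940), Hspa4l (0.923), Ahsa1 (0.907), Chordc1 (0.892), Hspd1 (0.886), Hsf2 (0.876), Dnaja2 (0.866), Hspa8 (0.862) and Tcp1 (0.811). Hspa4l is an HSP110 relative of Hsph1, Dnaja2 a J-domain partner of HSP70, and Cct3 and Tcp1 are TRiC subunits. With Hsph1, Dnajb1 had an r of 0.498, Hspa1b one of 0.255 and Hspe1 one of 0.130, and none of these 3 genes is among the 12. Genes outside the group reached a higher r with Hsph1 than any other member. The closest were 9030025P20Rik (0.989), Camsap1 (0.986), Dcun1d5 (0.982) and Esyt2 (0.976). All these r values include WT replicate 4, which stood apart from the other WT arrays in Hsph1, and none was taken without it.

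**Figure D2:**
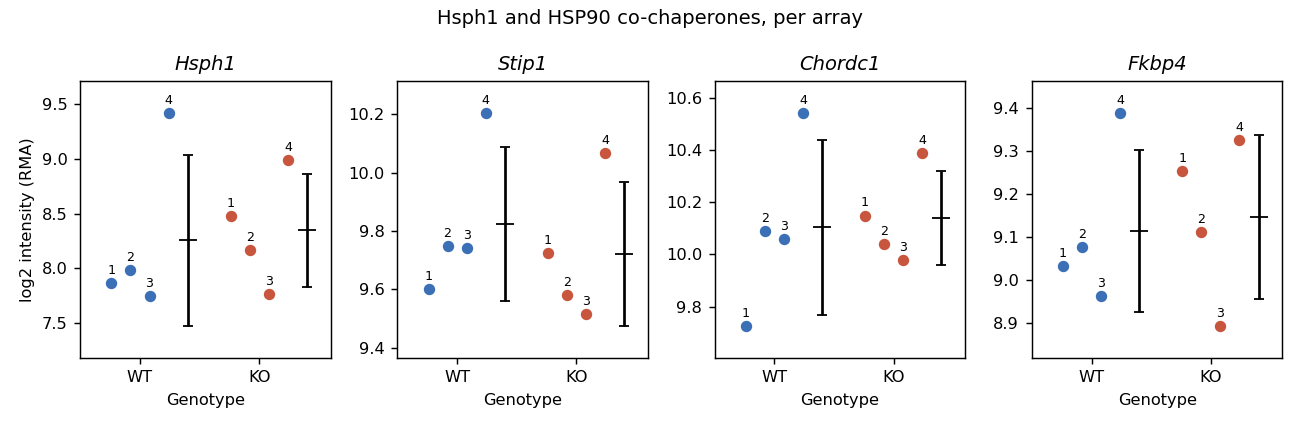
Log2 intensity (RMA, vertical axis) of Hsph1, Stip1, Chordc1 and Fkbp4 in the 4 WT and 4 KO arrays, with a vertical scale of its own for each gene. Numbers are replicates and bars the mean with its SD. Replicate 4 is the highest array of each genotype in every panel, and KO replicate 3 is the lowest KO array.

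**Figure D3:**
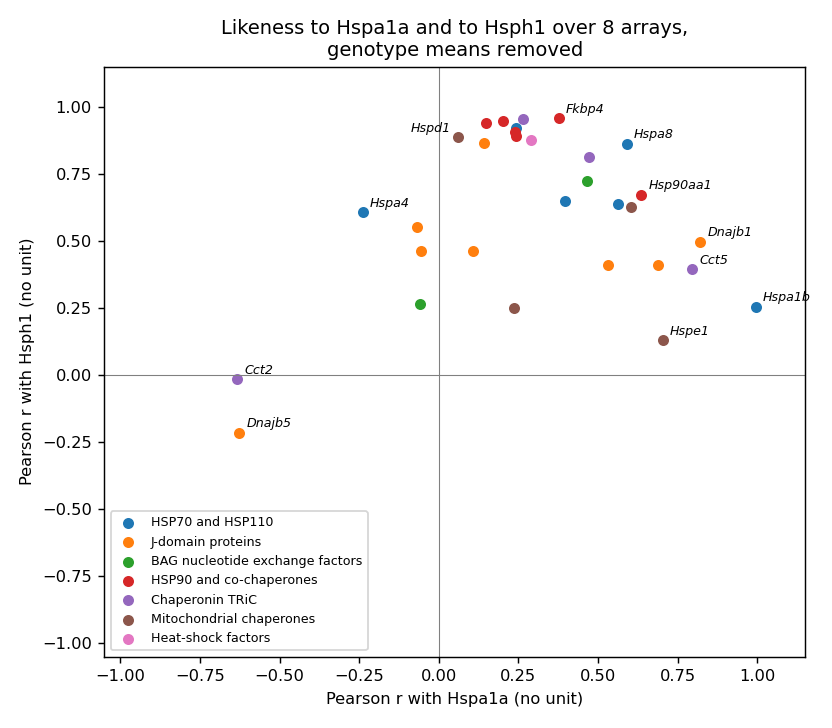
Each point is 1 of 31 tested members, placed by its Pearson r with Hspa1a (horizontal axis, no unit) and with Hsph1 (vertical axis, no unit) over 8 arrays after removal of the genotype means, coloured by role. Hspa1b, Dnajb1, Cct5 and Hspe1 lie at the right, and 12 members lie above 0.8 on the vertical axis.

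**Figure D4:**
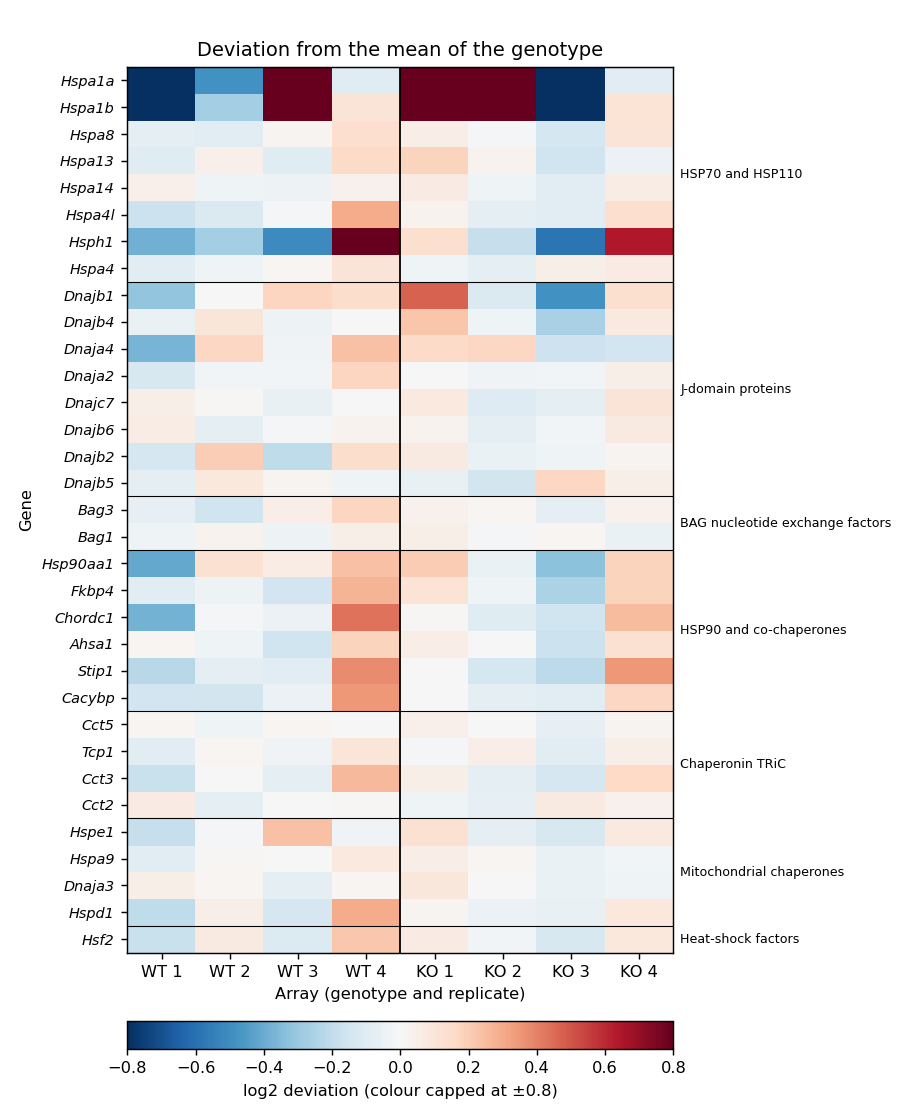
Each cell is the deviation of 1 gene (rows, grouped by role) in 1 array (columns) from the mean of its genotype, in log2 units with the colour capped at 0.8. The deviations of Hspa1a and Hspa1b pass the cap in WT replicates 1 and 3 and KO replicates 1, 2 and 3, Hsph1 passes it in WT replicate 4, and the HSP90 co-chaperones are above their mean in both replicates 4.

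The genotypes were compared last. None of the 33 tested members was called higher in KO, against 4.45% of all tested genes, and 2 (6.06%) were called lower, against 8.53% (limma, adjusted p under 0.05 over 11585 genes). At an unadjusted p under 0.05, limma found 2 members higher (6.06%, against 9.99% of all tested genes), Bag3 and Dnajc7. It found 5 lower (15.2%, against 19.2%), Hspa13, Hsf2, Dnajb5, Hspa14 and Hspa4. With array weights or with an intensity trend and a robust prior it still called none higher. The median KO minus WT difference was -0.03 over the members and -0.03 over all tested genes. The KO and WT arrays did not overlap for 4 members (12.1%), Hspa13, Hspa14, Dnajc7 and Hsf2, against 20.3% of all tested genes. In 28 of 33 members (84.8%) the 95% interval of the difference lay within 1.5-fold in either direction, against 93.7% of all tested genes.

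Among the HSP70 and HSP110 proteins, Hspa13 fell. It encodes STCH, an HSP70-like ATPase of the microsomes, and gave 7.94, 8.07, 7.94 and 8.18 in WT and 7.80, 7.65, 7.46 and 7.57 in KO. Every KO array lay below every WT array, and the difference was -0.41 ± 0.08 (SE; limma, adjusted p = 0.0132). The call was kept whichever single array was left out, and was lost without both replicates 4 (adjusted p = 0.0613). Hspa14, a ribosome-associated HSP70, did not overlap either but was not called (-0.15 ± 0.05, adjusted p = 0.0897), nor was the HSP110 relative Hspa4 (-0.14 ± 0.06, adjusted p = 0.135).

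The difference in Hspa1a was 1.67 ± 1.12 with a 95% interval from -0.84 to 4.17 (limma, adjusted p = 0.363; exact permutation p = 0.314 over 70 splits, two-sided). For Hspa1b it was 1.33 ± 1.19 with an interval from -1.32 to 3.99 (limma, adjusted p = 0.502; exact permutation p = 0.4). These intervals are too wide to tell a difference of several-fold from none. For both genes limma drew the variance towards that of other genes, so the SEs and intervals rest on less spread than the arrays show. KO replicate 3 decided the call: without it limma called Hspa1a higher in KO, by 2.84 (adjusted p = 0.0478), while Hspa1b at 2.60 was not called (adjusted p = 0.065). With the level of Hspa1a as a covariate, the difference in Hspa1b turned to -0.42 (adjusted p = 0.127). Hsph1 differed by 0.09 ± 0.37 (adjusted p = 0.897).

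Of the heat-shock factors, Hsf2, which forms trimers with HSF1 on the same DNA element and also acts in development, fell. It gave 7.88, 8.13, 7.95 and 8.27 in WT and 7.81, 7.73, 7.62 and 7.83 in KO, again with no overlap, and the nearest arrays were WT replicate 1 and KO replicate 4. The difference was -0.31 ± 0.09 (limma, adjusted p = 0.0483). The call held without WT replicate 1 but was lost without each of the other 7 arrays in turn (adjusted p of at most 0.12), with no filter on dim genes (adjusted p = 0.0863), with Hspa1a as a covariate (adjusted p = 0.078) and without both replicates 4 (adjusted p = 0.0945). The difference itself stayed between -0.24 and -0.37 in these fits.

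None of the 8 tested J-domain proteins was called. Dnajb5 was closest (-0.24 ± 0.07, adjusted p = 0.0589) and was called lower without KO replicate 3, after a second quantile normalization and with arrays centred on their medians, where Hspa14 was called lower too. Dnajc7, a J-domain protein with TPR repeats that binds HSP70 and HSP90, was 0.17 ± 0.06 higher without overlap but not called (adjusted p = 0.105). Dnajb1 differed by 0.25 ± 0.18 (adjusted p = 0.405). Bag3, an exchange factor that directs clients to autophagy, was 0.23 ± 0.07 higher (adjusted p = 0.0711) and was called higher without WT replicate 4 or with Hsph1 as a covariate. Bag1 differed by -0.02 ± 0.05 (adjusted p = 0.822).

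HSP90 and its co-chaperones, 6 tested genes, ranged from -0.14 for Cacybp to 0.07 for Hsp90aa1, and none was called (adjusted p from 0.442 to 0.909). All 4 TRiC subunits lay below 0, from -0.06 for Cct5 to -0.13 for Cct3, with none called (adjusted p from 0.246 to 0.431). The 4 mitochondrial chaperones ran from -0.12 for Hspd1 to 0.04 for Dnaja3, with none called. Outside the rule, the probe set that Dnaja1 shares with Mir207 gave 8.64, 8.99, 9.11 and 9.13 in WT and 9.38, 9.04, 8.90 and 9.22 in KO, with KO replicate 1 again the highest and KO replicate 3 the lowest KO array.

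**Figure D5:**
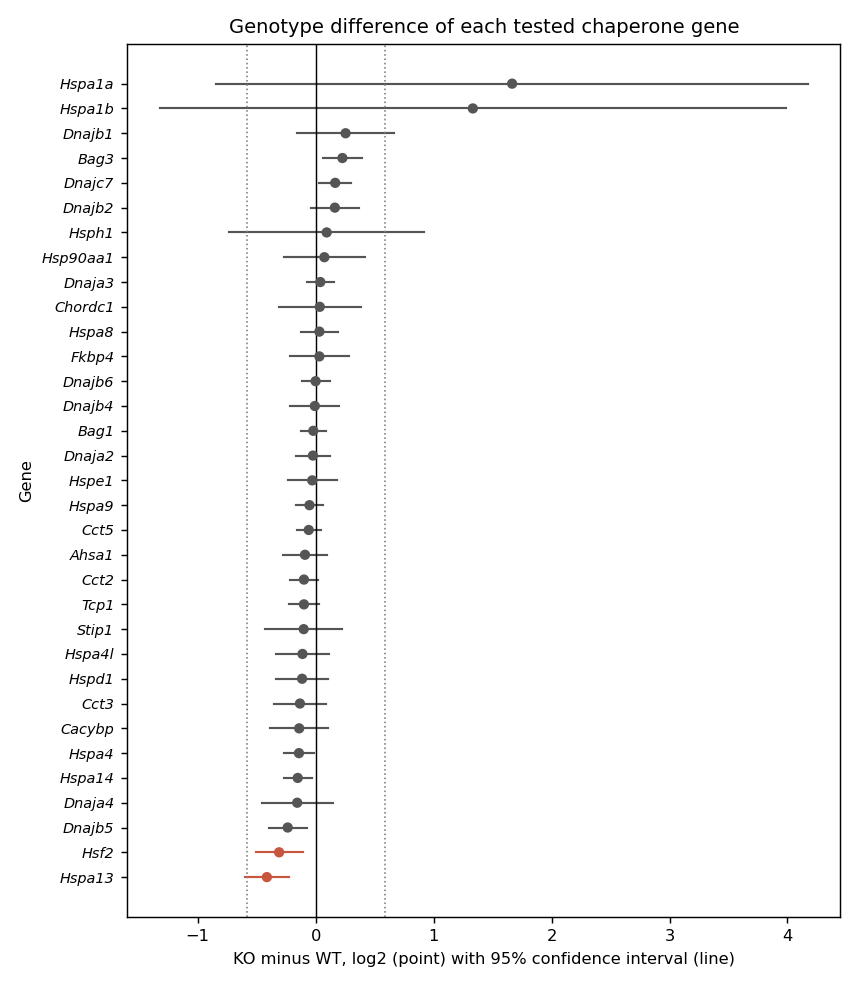
KO minus WT difference (horizontal axis, log2) of each of the 33 tested members (rows), with the limma estimate as a point and its 95% interval as a line. Hspa13 and Hsf2, in red, passed an adjusted p of 0.05, the dotted lines mark 1.5-fold, and the intervals of Hspa1a and Hspa1b are far wider than the rest.

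Related genes outside the group were counted by list. None was called among 9 other TRiC and prefoldin subunits, 25 other J-domain proteins or 4 other small heat-shock proteins (limma). At an unadjusted p under 0.05, 1, 2 and 0 of them were lower, against 19.2% of all tested genes, and 0 higher, against 9.99%. Of 16 other HSP90 and HSP70 co-chaperones, only the phosphatase Ppp5c was called, at -0.23 ± 0.06 (adjusted p = 0.0287). That is 6.25% called lower, beside 8.53% of all tested genes. At an unadjusted p under 0.05, limma found 5 of these 16 lower (31.25%, beside 19.2%) and 0 higher (beside 9.99%). Chaperones of the endoplasmic reticulum stood lower: 4 of 12 were called lower (33.3%, beside 8.53% of all tested genes), none higher, all 12 differences were below 0, beside 59.1% of all tested genes, and the median was -0.14, beside -0.03. Sdf2l1, which works with the HSP70 of that compartment, fell by 0.53 on the log2 scale (adjusted p = 0.00609). Creld2 (-0.24, adjusted p = 0.0245), the J-domain protein Dnajb11 (-0.27, adjusted p = 0.0403) and Hyou1 (-0.26, adjusted p = 0.0421) fell too. Sdf2l1 kept its call under every alternative run. Ppp5c lost its call without WT replicate 2, WT replicate 4, KO replicate 2, KO replicate 3 or KO replicate 4 (adjusted p from 0.0547 to 0.0774). Creld2 lost it without any 1 array but WT replicate 1 or KO replicate 2 (0.0514 to 0.0663), and Dnajb11 without any 1 array but WT replicate 3 or KO replicate 4 (0.0637 to 0.0985). With no filter on dim genes, limma did not call Ppp5c (adjusted p = 0.0637), Creld2 (adjusted p = 0.055) or Dnajb11 (adjusted p = 0.078). Hyou1 was not followed by itself through the alternative runs.

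Of the 16 immediate-early genes, 2 were called higher in KO (12.5%, against 4.45% of all tested genes) and 3 lower (18.75%, against 8.53%). Klf6 rose by 1.06 ± 0.07 (adjusted p = 7.08e-05) and Jun by 0.91 ± 0.22 (adjusted p = 0.0288). The genotypes did not overlap in Klf6 but did in Jun, at 9.32 in KO replicate 3 and 9.44 in WT replicate 2. Egr1 (-0.36 ± 0.06, adjusted p = 0.00733), Egr2 (-0.34 ± 0.08, adjusted p = 0.0237) and Nr4a1 (-0.31 ± 0.06, adjusted p = 0.0152) fell. These lists were chosen with earlier results of the data known.

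The arrays were alike, with r from 0.985 to 0.995 between arrays over the tested genes and array medians from 5.52 to 5.59. The mean over 6 CD4 T cell markers lay between 11.37 and 11.47 in all arrays. The mean of Cd8a, Cd8b1 and Runx3 was 9.42 to 9.68 in WT and 8.90 to 9.33 in KO, so that the genotypes did not overlap, and its part in the differences above was not tested. Lists for B, myeloid and dendritic, natural killer, thymic epithelial and erythroid cells had means of at most 5.66 in any array, with 6 of their 22 measured markers above the filter on dim signal. The brightest of these 6 was the B cell gene Cd79b, at 6.50 to 7.10. Of the 5 erythroid markers only 1, Klf1, was measured. For stromal and endothelial cells the mean was 6.36 to 6.51, with 3 of 5 above the filter, among them Pecam1, which T cells also express. In sorted cells measured in bulk, less RNA per cell and fewer cells that hold it cannot be told apart.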

How the data were processed

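The authors deposited log2 intensities per probe set, for which the submitters' processing notes name RMA and Affymetrix Expression Console 1.1. RMA corrects background, equalises the distributions of the arrays and summarises probes, so a shift shared by most genes is removed. Per the labels' protocols, RNA of sorted cells was amplified before labelling. A genome build and filters used before deposit were not stated in the labels. The number of arrays limits the precision.

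Of 41345 probe sets, 23521 had 1 gene symbol in a platform annotation, which can be old, and 1814 had several. Genotypes were compared with limma 3.58.1 (R 4.3.3; lmFit, eBayes, two-sided, genotype only) over 11585 genes with Benjamini-Hochberg adjustment, and every adjusted p not named otherwise is from this fit. Replicates were numbered in order of deposit and pair no samples. Likeness to Hspa1a was to be adjusted over the members, and it is given instead unadjusted beside the share of all genes. Scripts were tested on simulated data. Values per array were printed for Hspa1a, Hspa1b, the genes called or like Hspa1a and, chosen after their values were seen, Hsph1, Stip1, Chordc1, Fkbp4 and the Dnaja1 probe set. Of each other list, up to 3 genes were named, called ones first, and beyond that rule Hyou1, Jun, Egr2, Ier2 and Fos. The members and lists were chosen with earlier results of these data known.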

Additional observations from a re-analysis of the deposited data

Results flagged for a closer look

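In 106 groups of 4 arrays, each genotype of the 35 members and of 18 genes from other lists, a single array stood apart from the other 3 by Dixon's criterion in 2, and chance gives about 1 in 20. Hsph1 was 9.42 in WT replicate 4 against 7.74 to 7.99 in the other WT arrays. Dnajc30, a J-domain protein of mitochondria outside the group, was 8.11 in KO replicate 3 against 7.96 in each of the other KO arrays.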

How the results depend on the processing

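No paired analysis was possible because the labels carry no replicate numbers. The count of members higher in KO, 0, became 1 with Hsph1 as a covariate (chosen after seeing the data) and 0 to 1 without single arrays. The count lower, 2, became 1 with no filter on dim genes, 4 with arrays centred on their medians, 1 with Hspa1a as a covariate, 0 at an adjusted p under 0.01, 0 without both replicates 4 (chosen after seeing the data) and 1 to 2 without single arrays. The 10 calls in the other lists became 6 with no filter, 6 with Hspa1a as a covariate, 3 at an adjusted p under 0.01, 4 without both replicates 4 and 5 to 9 without single arrays, and rose to 15 with arrays centred, 14 with an intensity trend and robust prior and 13 with Hsph1 as a covariate. The 3 members like Hspa1a became 1 by the limma fit on Hspa1a and 1 to 6 without single arrays. The difference in Hspa1b, 1.33, turned to -0.42 with Hspa1a as a covariate. The cause of these changes was not tested. The median SD of the members moved from 0.143 to 0.133 after a second quantile normalization and to 0.155 with arrays centred. A stricter filter, averaging probe sets per gene, array weights, a robust trend and the title number left both counts of members as they were.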
